A study of Mus musculus with 10 samples.

Results

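The RUNX transcription factors and their partners comprised 7 genes, chosen by symbol out of the 26888 genes measured in OP9 cells: the DNA-binding subunits *Runx1*, *Runx2* and *Runx3*, their common subunit *Cbfb*, and the corepressors of the ETO family *Runx1t1*, *Cbfa2t2* and *Cbfa2t3*. A RUNX protein binds DNA through its Runt domain and gains affinity by pairing with CBFB, which does not itself contact DNA. RUNX1 is required for the emergence of blood stem cells from the embryonic aorta, RUNX2 for the formation of bone, and RUNX3 acts in T cells, sensory neurons and gut epithelium. The ETO proteins bind no specific DNA sequence and recruit histone deacetylases to other factors, and they are best known from leukemia fusions of RUNX1 with the protein that *Runx1t1* encodes.

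OP9 is a stromal cell line from the calvaria of op/op mice, which lack functional macrophage colony-stimulating factor, and all libraries came from this line, of strain (C57BL/6xC3H)F2-op/op. RNA-seq was compared between 6 reaggregates and 4 flat cultures submersed in medium. Cells for reaggregates were dispersed with trypsin, pelleted by centrifugation and kept on nitrocellulose filters at the boundary of medium and gas for 48 h. Per the study's methods, reaggregates were then dissociated with collagenase and dispase before RNA extraction. No such step is described for flat cultures, so its effect cannot be told apart from that of reaggregation. Reaggregates 2, 4 and 6 received the cytokine IL-3, at a dose labelled as 200 µg/µl, and reaggregates 1, 3 and 5 did not. The labels gave the de Bruijn lab as the origin of flat cultures 2 and 4, whereas those of flat cultures 1 and 3 and of the reaggregates named no lab. Values are RPM, reads on a gene scaled to an equal total of reads on genes in each library. The libraries held between 7.35 and 9.43 M reads on genes, so that 3 reads, the smallest amount treated as detectable, corresponded to between 0.318 and 0.408 RPM, a limit that covers counting error only. Nothing in the labels states that libraries of a group came from separate cultures, so p-values measure the spread between libraries, which may be technical. Reaggregates 1 and 2, 3 and 4, and 5 and 6 were much more alike than other reaggregates: Pearson's r across genes, which are not independent replicates, was between 0.994 and 0.995 within these consecutive pairs and between 0.961 and 0.980 in the 12 other pairings. The limma tests were repeated with these pairs averaged, modelled as a block or left out, whereas the exact tests of single members count each library as separate. The text gives the main changes in calls but not each one.

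*Runx1*, *Cbfb*, *Cbfa2t2* and *Cbfa2t3* were higher in every reaggregate than in every flat culture, *Runx2* was higher with an overlap between the groups, *Runx1t1* varied most among the reaggregates, and *Runx3* was the only member with a lower mean in reaggregates. Expression was compared in limma on log2(RPM + 0.5), a scale on which changes of weakly expressed genes appear too small, over 16933 genes that exceeded 0.5 RPM in 1 library or more, as all 7 members did. Calls needed a change of 2-fold or more with p, adjusted by Benjamini-Hochberg, no higher than 0.05. By this rule 2 of 7 members, *Runx1* and *Cbfa2t3*, were called higher and 0 were called lower, where 7.32% of all genes tested were called higher and 6.53% lower. The call of *Cbfa2t3* was lost with a pseudocount of 1, with consecutive reaggregates as a random block and with only the IL-3 reaggregates, leaving *Runx1* alone. *Cbfa2t3* exceeded the 0.5 RPM of the filter in reaggregates only, flat cultures having at most 0.117 RPM, and it was also called without a filter. With the adjusted p alone, 5 of 7 members were higher, against 13.6% of all genes. With consecutive reaggregates averaged 3 of 7 were, *Runx1*, *Cbfb* and *Cbfa2t3*, and as a random block 3 of 7, *Runx1*, *Cbfb* and *Cbfa2t2*. The share of all genes by adjusted p alone is not given for either setting, so these counts have no background. By both thresholds 750 and 1446 of 16933 genes were called in them, in either direction. The 4 members whose groups did not overlap compare with 7.80% of all genes in which every reaggregate lay above every flat culture. Fewer cells that express a gene and less RNA per cell cannot be told apart in these bulk libraries. *Runx1* and *Runx1t1* also belong to a list that the study itself selected on these samples, so their direction is not independent evidence.

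**Figure D1:**
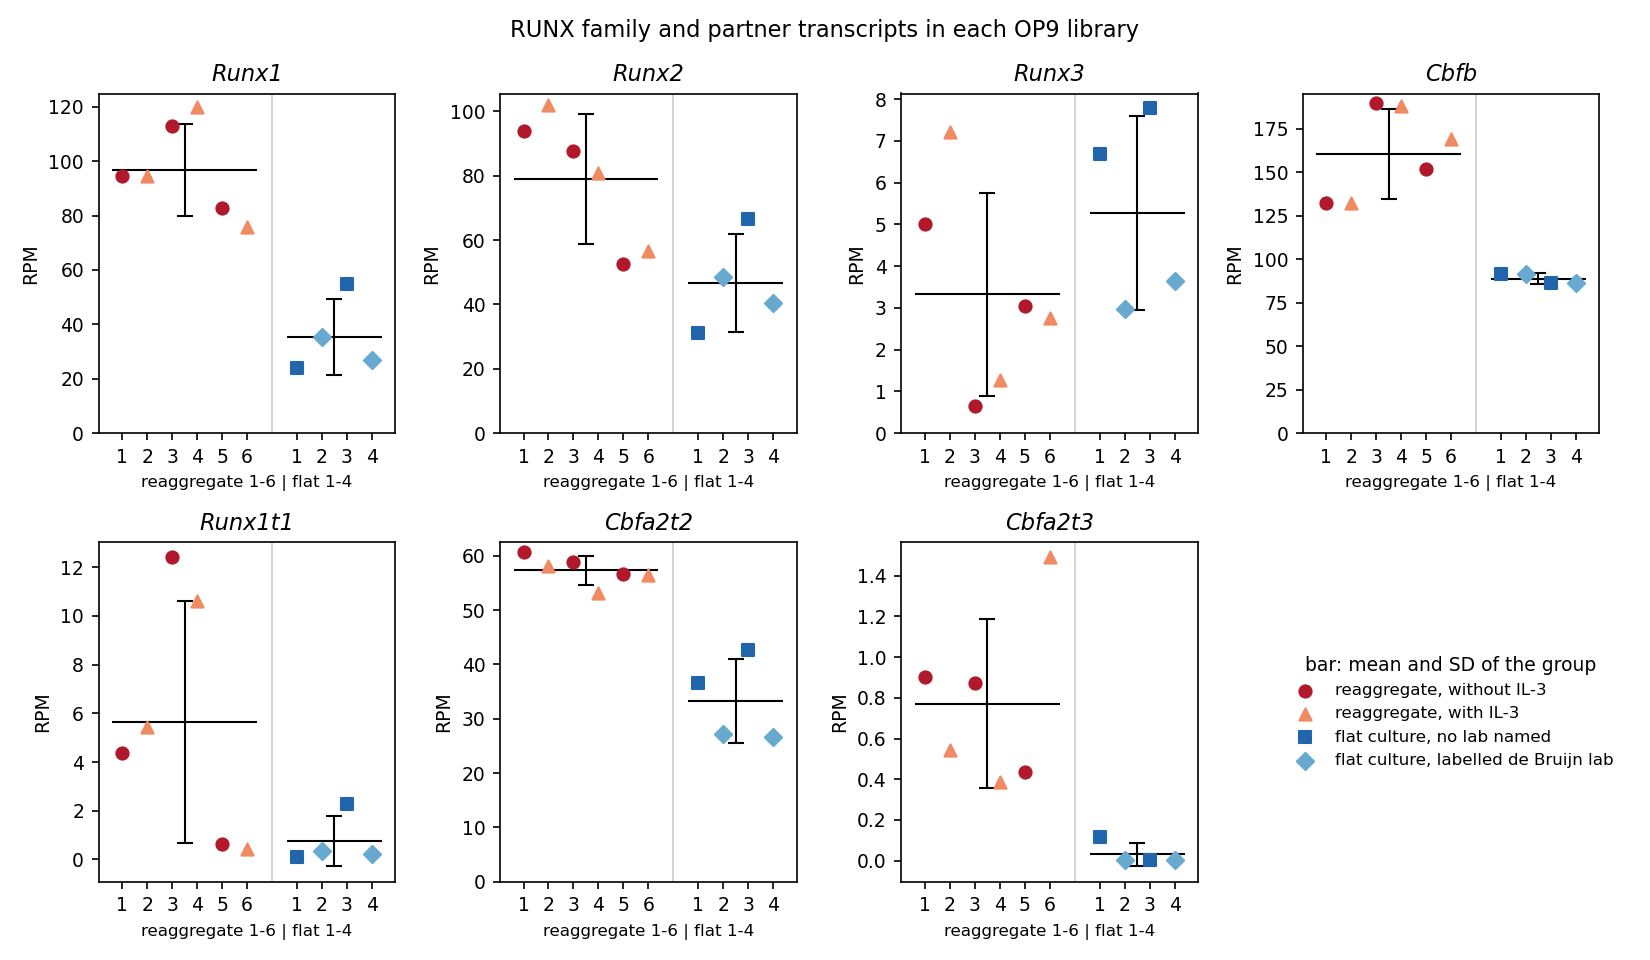
RPM of the 7 members in each library, reaggregates 1 to 6 on the left of each panel and flat cultures 1 to 4 on the right, with the mean and SD of each group as black bars. *Runx1*, *Cbfb*, *Cbfa2t2* and *Cbfa2t3* were separated between the groups, and *Runx1t1* ranged from 0.425 to 12.4 RPM among the reaggregates.

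Among the DNA-binding subunits, *Runx1* (ENSMUSG00000022952, NCBI37/mm9 chromosome 16, 92601712 to 92826311, minus strand) stood at 94.6, 94.7, 113, 120, 82.9 and 75.8 RPM in reaggregates 1 to 6, while flat cultures 1 to 4 had 24.1, 35.5, 55.0 and 26.8 RPM. The lowest reaggregate, number 6, lay above the highest flat culture, number 3. Reaggregates averaged 96.8 ± 17.0 RPM (SD, n = 6), flat cultures 35.4 ± 14.0 RPM (SD, n = 4). The log2 difference was 1.50 with a SE of 0.23 (limma, adjusted p = 0.00108), and the exact two-sided permutation p was 0.00476, the smallest that 210 splits of 6 and 4 libraries can give. *Runx1* was called under each of the 26 alternatives, with log2 differences between 1.34 and 1.73 and adjusted p between 0.000122 and 0.0377. The difference from the de Bruijn lab cultures alone was 1.62, and from those with no lab named 1.38.

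*Runx2* (ENSMUSG00000039153, chromosome 17, 44632936 to 44951746, minus strand), the regulator of osteoblast differentiation, had between 52.5 and 102 RPM in reaggregates with a median of 84.2 RPM, and 31.1, 48.5, 66.6 and 40.4 RPM in flat cultures 1 to 4. Reaggregates 5 and 6 lay within the range of the flat cultures, since flat culture 3 exceeded both. The log2 difference of 0.76 (SE 0.25, limma adjusted p = 0.0374) was below the fold threshold, and the exact permutation p was 0.0286. Without reaggregates 5 and 6 it was 1.01 with an adjusted p of 0.0123, past both thresholds, whereas the adjusted p was 0.158 with consecutive reaggregates averaged and 0.0914 with them as a random block. It was above 0.05 without a filter (0.0848) and in 7 of 10 fits with 1 library left out, where it ranged from 0.00942 to 0.102.

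*Runx3* (ENSMUSG00000070691, chromosome 4, 134676567 to 134733905, plus strand) was low in all libraries, with 5, 7.22, 0.653, 1.28, 3.04 and 2.76 RPM in reaggregates 1 to 6, while flat cultures 1 to 4 had 6.68, 2.98, 7.78 and 3.64 RPM. The groups overlapped widely, reaggregates 3 and 4 being lowest and flat culture 3 and reaggregate 2 highest. The log2 difference of -0.77 had a SE of 0.50 and did not pass the test (limma, adjusted p = 0.251, exact permutation p = 0.219). Against the de Bruijn lab flat cultures it was -0.26 and against those with no lab named -1.28, and neither passed the test (adjusted p = 0.748 and 0.197). Leaving out reaggregate 3 gave -0.48, leaving out 3 and 4 gave -0.20, and leaving out 1 and 2 gave -1.29.

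*Cbfb* (ENSMUSG00000031885, chromosome 8, 107694574 to 107741886, plus strand), whose product stabilizes RUNX proteins on DNA, had 132, 132, 190, 188, 152 and 169 RPM in reaggregates 1 to 6, while flat cultures 1 to 4 had 91.4, 91.4, 86.0 and 86.1 RPM. The flat cultures differed by at most 1.06-fold, less than for any other member, and all lay below the lowest reaggregates, numbers 1 and 2. The log2 difference was 0.84 (SE 0.14, limma adjusted p = 0.00202, exact permutation p = 0.00476), short of the fold of 2. It was the same to 2 decimals against either subset of flat cultures, 0.84 and 0.84.

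In the ETO family, *Runx1t1* (ENSMUSG00000006586, chromosome 4, 13670583 to 13820796, plus strand) had 4.38, 5.45, 12.4, 10.6, 0.651 and 0.425 RPM in reaggregates 1 to 6, while flat cultures 1 to 4 had 0.115, 0.359, 2.28 and 0.243 RPM. Reaggregates 3 and 4 were highest, and flat culture 3 exceeded reaggregates 5 and 6, which corresponded to 6 and 4 reads. The log2 difference of 1.99 had a SE of 0.78 and missed the threshold (limma, adjusted p = 0.0722, exact permutation p = 0.0571). It passed without reaggregate 5 (2.35, adjusted p = 0.0384), without reaggregate 6 (2.41, 0.0267), without both (2.97, 0.00461) or without flat culture 3 (2.47, 0.0313). Without reaggregates 3 and 4 it fell to 1.21 (adjusted p = 0.249), and the adjusted p was 0.168 with consecutive reaggregates averaged and 0.103 with them as a random block.

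*Cbfa2t2* (ENSMUSG00000038533, chromosome 2, 154262217 to 154365092, plus strand) was the most abundant of the ETO family, with between 53.1 and 60.8 RPM and a median of 57.4 RPM in reaggregates and with 36.5, 27.2, 42.6 and 26.7 RPM in flat cultures 1 to 4. The reaggregates were close together and all above the flat cultures, among which those labelled de Bruijn lab were lowest. The log2 difference was 0.80 (SE 0.15, limma adjusted p = 0.00366, exact permutation p = 0.00476), below the fold of 2. Against the de Bruijn lab flat cultures alone it was 1.07 and called (adjusted p = 7.03e-05), and against the others it was 0.53 (adjusted p = 0.0161). With consecutive reaggregates averaged the adjusted p was 0.0740.

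*Cbfa2t3* (ENSMUSG00000006362, chromosome 8, 125152639 to 125223009, minus strand) was near the limit of detection, with 0.900, 0.546, 0.873, 0.386, 0.435 and 1.49 RPM in reaggregates 1 to 6, between 3 and 14.1 reads a library. Flat culture 1 had 0.117 RPM, or 1 read, and flat cultures 2, 3 and 4 had 0.00101, 0.000725 and 0.00325 RPM, fractions that arise because the authors divided ambiguous reads among genes. All reaggregates were above all flat cultures, and reaggregate 6 was highest. The log2 difference of 1.21 (SE 0.24, limma adjusted p = 0.00490, exact permutation p = 0.00476) depends on the pseudocount at this level and was below the fold of 2 with a pseudocount of 1 (0.75). Summed over libraries, 40 reads in reaggregates and 1 read in flat cultures gave a ratio of 26.5 after scaling to depth, with an exact (Clopper-Pearson) 95% interval from 4.49 to 1073 that covers counting error only. The call was lost with consecutive reaggregates as a random block (adjusted p = 0.285) and with only the IL-3 reaggregates (adjusted p = 0.0695), and the adjusted p ranged from 0.00176 to 0.285 over the 26 alternatives.

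Some of these genes overlap others on the opposite strand, and no source states that reads were assigned by strand. An exon of *Gm16801* overlaps *Runx1*, and one of *Gm10497* overlaps *Runx2*, with at most 0.473 and 2.55 RPM in any library, beside at least 24.1 RPM for *Runx1* and 31.1 RPM for *Runx2*. *Gm10612* shares exon sequence with *Cbfa2t3* and has no value here, which leaves the few reads of *Cbfa2t3* uncertain as to their source. A pseudogene on the same strand, *Gm15899*, overlaps *Cbfa2t3* outside its exons and had at most 6.87 RPM, beside at most 1.49 RPM for *Cbfa2t3*.

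Levels were compared between genes as RPM per kb of merged exons. In reaggregates the order of mean levels was *Cbfb* (55.1 ± 8.95 RPM per kb, SD, n = 6), *Runx1* (12.4 ± 2.18), *Runx2* (8.93 ± 2.28), *Cbfa2t2* (6.63 ± 0.301), *Runx1t1* (0.710 ± 0.626), *Runx3* (0.665 ± 0.487) and *Cbfa2t3* (0.162 ± 0.0866). *Cbfb* exceeded *Runx1*, and *Runx1* exceeded *Runx2*, in 6 of 6 reaggregates. *Runx2* exceeded *Cbfa2t2* in 4 of 6, and *Runx1t1* exceeded *Runx3* in 2 of 6, so these neighbours did not differ beyond their spread. In flat cultures the order was *Cbfb* (30.5 ± 1.06 RPM per kb, SD, n = 4), *Runx2* (5.28 ± 1.71), *Runx1* (4.53 ± 1.79), *Cbfa2t2* (3.84 ± 0.889), *Runx3* (1.05 ± 0.464), *Runx1t1* (0.0941 ± 0.129) and *Cbfa2t3* (0.00639 ± 0.0121). *Runx2* exceeded *Runx1* per length in 4 of 4 flat cultures, the opposite order to the reaggregates. The ranges of *Runx2*, *Runx1* and *Cbfa2t2* overlapped between libraries. In RPM, without division by length, *Runx2* exceeded *Runx1* in reaggregate 2 as well (102 against 94.7 RPM). Reaggregate 1 was then close to equal (93.8 against 94.6 RPM), so the order in reaggregates depends on the lengths used.

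The share of *Runx1* in the summed level of the 3 RUNX genes does not depend on scaling between libraries. Per length it was 51.1, 48.3, 59.0, 62.1, 61.9 and 58.2% in reaggregates 1 to 6 and 38.9, 42.8, 43.7 and 39.3% in flat cultures 1 to 4. All reaggregates were above all flat cultures, with reaggregates 1 and 2 nearest to them. The difference was 15.6 percentage points, from 41.2 ± 2.42% (SD, n = 4) to 56.8 ± 5.75% (SD, n = 6), with an exact two-sided permutation p of 0.00952. With consecutive reaggregates averaged the exact p was 0.0286, the smallest that 3 pairs and 4 flat cultures can give. The share of *Runx2* averaged 40.2 ± 4.45% in reaggregates and 48.7 ± 3.88% in flat cultures, and that of *Runx3* 3.06 ± 1.97% and 10.1 ± 4.78%, with overlap between the groups for both. The summed RUNX level was between 16.7 and 25.1 RPM per kb in reaggregates and between 7.95 and 16.1 RPM per kb in flat cultures. *Cbfb* stood at 2.58 ± 0.644 times the summed RUNX level in reaggregates and 3.03 ± 0.899 times in flat cultures, so its transcript exceeded theirs in both groups and the ratios overlapped.

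**Figure D2:**
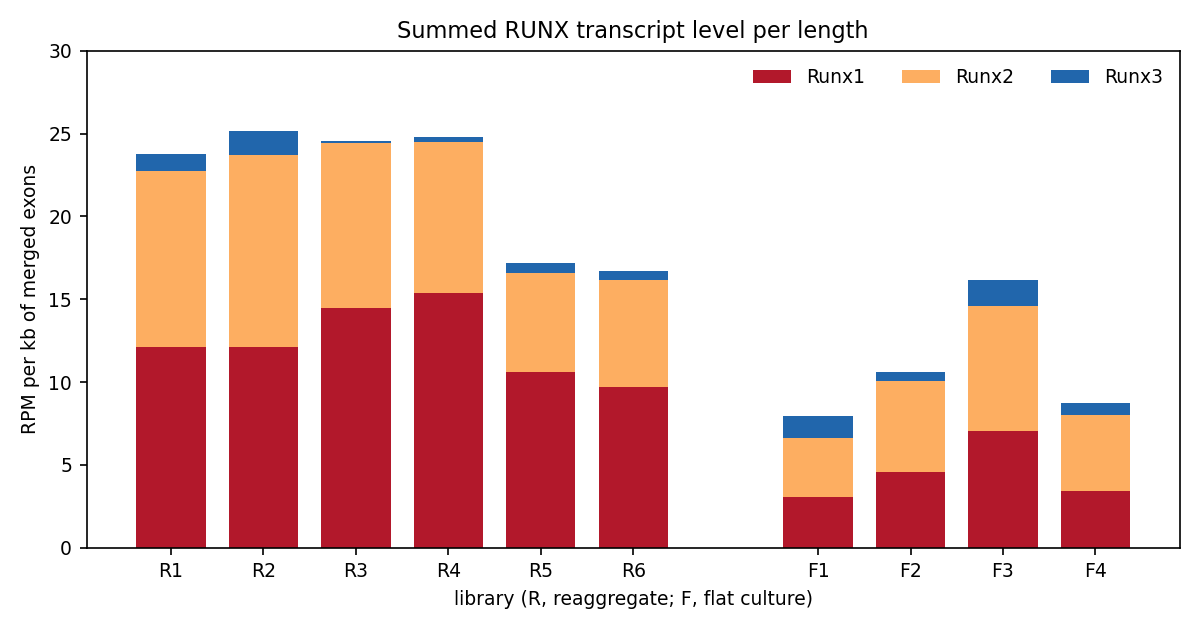
Stacked levels of *Runx1*, *Runx2* and *Runx3* in RPM per kb of merged exons, with 1 bar for each reaggregate (R1 to R6) and flat culture (F1 to F4). *Runx1* formed between 48.3 and 62.1% of each reaggregate bar and between 38.9 and 43.7% of each flat culture bar.

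Among the reaggregates the members differed in the size of their variation and in which libraries were highest. *Runx1* and *Runx1t1* were both highest in reaggregates 3 and 4 and lowest in 5 and 6 (Pearson's r = 0.953, n = 6 libraries). These libraries form 3 consecutive pairs that were much alike, so they do not count as 6 independent values. This r was the highest among all pairs of members, and that of *Runx3* and *Cbfb* was the lowest at -0.951. The mean of *Runx1* in reaggregates 3 and 4 was 1.47 times that in reaggregates 5 and 6, while that of *Runx1t1* was 21.4 times. *Runx2* was highest in reaggregates 1 and 2, at 1.79 times the level in reaggregates 5 and 6. *Runx3* was lowest in reaggregates 3 and 4, where *Cbfb* was highest, and its mean in reaggregates 1 and 2 was 6.32 times as high. *Cbfa2t2* changed by only 1.06-fold between these pairs. Among the flat cultures, number 3 was highest for *Runx1*, *Runx2*, *Runx3*, *Runx1t1* and *Cbfa2t2*.

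IL-3 signals through a receptor of blood cells, and the comparison of reaggregates with and without it asked whether the cytokine altered the stroma. No member was called, as 0 of 16933 genes were (0% in limma, with 68 genes at p no higher than 0.05 before adjustment). *Runx1* averaged 96.8 ± 22.2 RPM with IL-3 and 96.8 ± 15.2 RPM without it (SD, n = 3 each). The log2 differences of the 7 members lay between -0.08 for *Runx1t1* and 0.33 for *Runx3*, and each had an adjusted p of 1 in limma. With 3 libraries against 3 the exact permutation test cannot give a p below 0.10. Each consecutive pair held 1 library with and 1 without IL-3. With these pairs as a fixed block the SE of *Runx3* fell from 0.75 to 0.20 and that of *Runx1t1* to 0.18, and again 0 members and 0 genes were called (limma, adjusted p of at least 0.982 for each member).

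Between the flat cultures labelled de Bruijn lab and those with no lab named, 0 of 7 members were called, where 5.70% of all genes were. That share depended on the processing, and without a filter 166 of 26888 genes were called. *Runx3* was lower in both de Bruijn lab cultures (3.31 ± 0.467 RPM against 7.23 ± 0.778 RPM, SD, n = 2 each), with a log2 difference of -1.02 (limma, adjusted p = 0.169). *Cbfa2t2* was also lower in both, at 27.0 ± 0.354 against 39.6 ± 4.31 RPM (log2 difference -0.54, limma adjusted p = 0.305). The other members overlapped, and with 2 libraries against 2 the smallest exact permutation p is 0.333. The study's methods name the Medvinsky and de Bruijn groups for cells in flat culture, but the labels leave the origin of the reaggregated cells unstated. *Runx1* was called against either kind of flat culture, as given above.

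The genes most like *Runx1* over the 10 libraries, by Pearson's r of log2(RPM + 0.5) among 11660 genes with a mean of at least 5 RPM, were *Tanc1* (0.996), *Spns1* (0.993), *Mxd4* (0.992), *C130039O16Rik* (0.992) and *Zfp652* (0.990). All 5 were called higher in reaggregates, with log2 differences from 1.04 for *Tanc1* to 1.40 for *Spns1*. *Spns1* encodes a lysosomal transporter and *Mxd4* a partner of MAX that opposes MYC. For *Cbfa2t3* they were *Ap3s2* (0.953), *Gal3st4* (0.914), *Gpr177* (0.908), *Sgce* (0.907) and *Ccny* (0.901), of which *Gal3st4* (1.09) and *Gpr177* (1.12), the Wnt secretion factor also known as Wntless, were called. These correlations share libraries and the difference between the groups, and they are given as a description.

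RUNX proteins repress genes through corepressors that recruit histone deacetylases. Of 12 corepressors tested, 2 were called higher and 0 lower, and their median log2 difference was 0.70 beside 0.04 for all 16933 genes. Counts for this list and those below stand beside 7.32% of all genes called higher and 6.53% lower. With consecutive reaggregates averaged, 750 genes in place of 2345 were called in either direction. The counts called higher then fell to 1 of 12 corepressors, 0 of 8 coactivators and 0 of 9 modifying proteins. For DNA-binding partners they fell to 1 of 17, and for ETO partners to 1 of 12. Leaving out 1 library gave between 1 and 4 corepressors called higher. The 4 came without flat culture 3, when 3643 of all 16933 genes were called in either direction. Against the de Bruijn lab cultures alone 5 were called higher, where 4354 genes were called in either direction. Against the flat cultures with no lab named 1 was, where 1671 genes were called in either direction. *Zfp521*, a zinc finger protein that binds RUNX2 and restrains osteoblast genes, had between 193 and 256 RPM in reaggregates with a median of 209.5 RPM, and 35.2, 25.8, 76.5 and 17.1 RPM in flat cultures 1 to 4. No reaggregate came near the flat cultures, and the log2 difference was 2.71 (SE 0.32, limma adjusted p = 0.000260), called under each alternative. The Groucho corepressor *Tle1* was called at 1.08 (adjusted p = 0.00415), but not with consecutive reaggregates averaged (adjusted p = 0.0639) or against the flat cultures with no lab named (0.78). *Ncor1*, with the highest mean RPM of the list over the 10 libraries though not in reaggregates, averaged 216 ± 36.3 RPM in reaggregates and 147 ± 68.4 RPM in flat cultures and was not called (adjusted p = 0.0742).

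Of 8 coactivators, 1 was called higher and 0 lower, with a median log2 difference of 0.70, and between 1 and 2 were called higher with 1 library left out. It was the histone acetyltransferase gene *Myst4*, now *Kat6b*, at 97.3 ± 23.3 RPM in reaggregates and 32.1 ± 20.6 RPM in flat cultures (log2 difference 1.74, limma adjusted p = 0.00402). With consecutive reaggregates averaged its adjusted p was 0.0623. *Wwtr1*, which encodes the Hippo pathway coactivator TAZ and had the highest mean RPM of the list in reaggregates but not in flat cultures, had a log2 difference of 0.90 (adjusted p = 0.00138), short of the fold of 2, with all reaggregates above all flat cultures.

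Of 9 kinases, ubiquitin ligases and related proteins that modify RUNX proteins, 1 was called higher and 1 lower, with a median of -0.30. With 1 library left out, between 0 and 1 were called higher and between 1 and 2 lower. The kinase gene *Pim1* was higher by 1.13 (limma, adjusted p = 0.00864), and *Cdc20*, an activator of the anaphase-promoting complex, was lower by a log2 difference of -2.19 (adjusted p = 0.00124). *Cdc20* had between 13.6 and 24 RPM in reaggregates and 175, 47.4, 126 and 53.6 RPM in flat cultures 1 to 4, all of these above the reaggregates. The call of *Pim1* was lost with consecutive reaggregates averaged (adjusted p = 0.0740). *Smurf2*, a ubiquitin ligase gene with the highest mean RPM of the list in both groups, had a log2 difference of -0.53 and was not called.

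Of 17 DNA-binding partners and antagonists tested, 2 were called higher and 1 lower, with a median of 0.49. With 1 library left out, between 2 and 4 were called higher and between 0 and 1 lower. The Notch target *Hes1* was higher by 1.49 (44.8 ± 10.7 against 15.4 ± 2.62 RPM, limma adjusted p = 0.000620) and was called under each alternative. *Cebpb* was higher by 1.14 (adjusted p = 0.00488), but not called with consecutive reaggregates averaged (adjusted p = 0.0579) or against flat cultures with no lab named (0.97). *Cebpa*, a factor of adipocyte and myeloid differentiation, had between 26.7 and 40.8 RPM in reaggregates and 34.9, 188, 64.3 and 119 RPM in flat cultures 1 to 4. Its highest values were those of both de Bruijn lab cultures, and flat culture 1 lay among the reaggregates. The log2 difference of -1.36 (adjusted p = 0.0190) was not called with consecutive reaggregates averaged (adjusted p = 0.137) or as a random block (0.0627), or against the flat cultures with no lab named (-0.54, adjusted p = 0.145). *Smad5*, a mediator of bone morphogenetic protein signals, had the highest mean RPM over the 10 libraries, though in neither group alone, and was not called at 0.76. *Tal1* was at 0 in all libraries and *Lmo2* reached at most 0.128 RPM, and both are factors of early blood cells. Other factors of the list were detected, *Fli1* with between 3.1 and 11.8 RPM and *Gata2* with between 1.95 and 12.6 RPM. *Erg* was at 0 in flat cultures and reached 1.75 RPM in reaggregates, and none of these was called.

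Partners of the ETO proteins included 3 of 12 called higher and 0 lower, with a median of 0.68, and between 2 and 3 higher with 1 library left out. *Tcf4*, which encodes an E protein and had the highest mean RPM of them in reaggregates, had between 260 and 354 RPM in reaggregates and 84.8, 62.4, 181 and 48.1 RPM in flat cultures 1 to 4. Its log2 difference was 1.87 (SE 0.30, limma adjusted p = 0.00140) and was called under each alternative. The repressor gene *Bcl6* was higher by 2.10 (adjusted p = 0.00764), with a wide range from 19.4 to 103 RPM in reaggregates, and the LIM-domain adaptor gene *Ldb1* by 1.09 (adjusted p = 0.0102). Both calls were lost with consecutive reaggregates averaged (adjusted p = 0.0551 and 0.0760) and against the flat cultures with no lab named (adjusted p = 0.0789 and 0.0827).

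**Figure D3:**
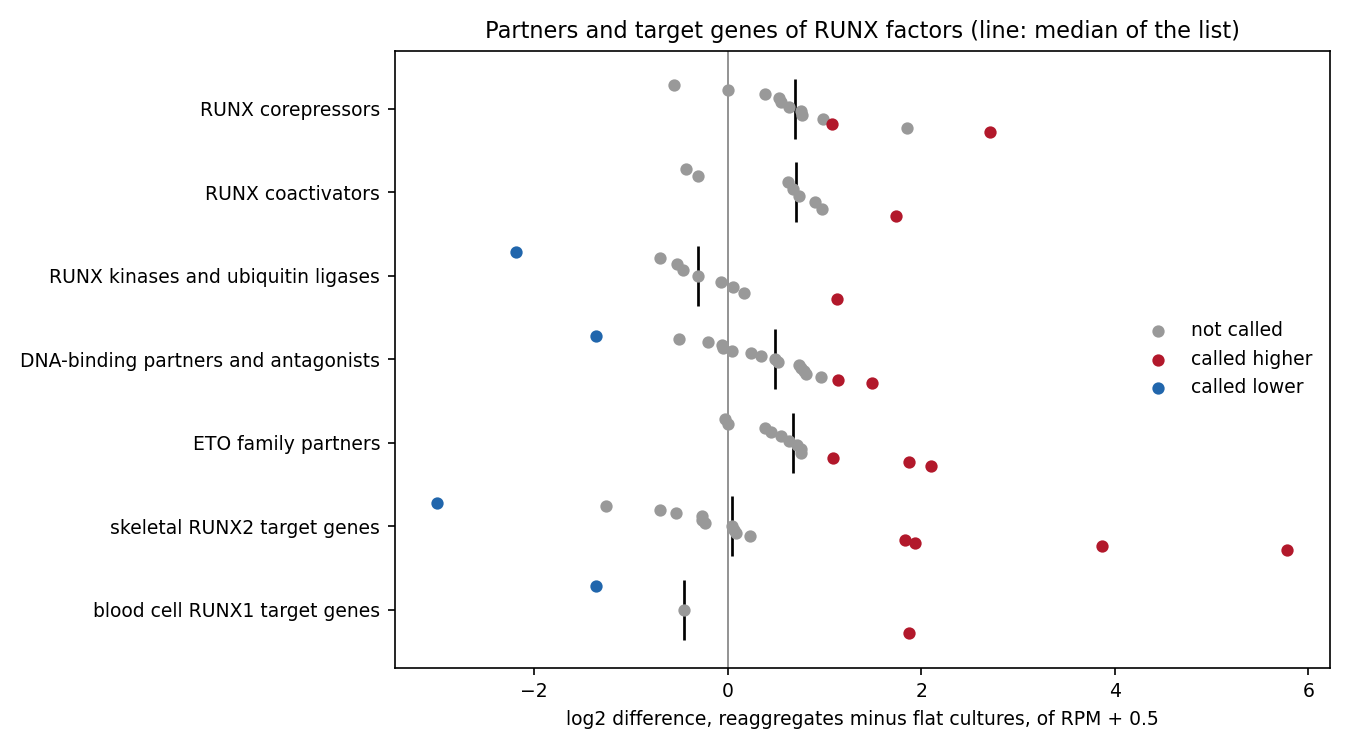
Log2 differences of RPM + 0.5, reaggregates minus flat cultures, for each tested gene of 7 lists of RUNX partners and target genes, with called genes in color and the median of each list as a vertical line. The medians lay at 0.70 for corepressors and for coactivators and at 0.04 for skeletal target genes, where single genes ranged from -3.00 for *Tnfrsf11b* to 5.78 for *Mmp13*.

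Known skeletal target genes of RUNX2 encode proteins of the bone matrix and of its remodelling. Of 15 tested, 4 were called higher, 1 lower and 10 not at all, with 2 higher and 0 lower when consecutive reaggregates were averaged and between 1 and 2 lower when 1 library was left out, and the median of 0.04 was close to that of all genes. The collagenase gene *Mmp13* had between 32.8 and 133 RPM in reaggregates with a median of 101 RPM, and 1.15, 0.358, 3.59 and 0.121 RPM in flat cultures 1 to 4, a log2 difference of 5.78 (SE 0.57, limma adjusted p = 0.000104). *Dmp1*, a matrix protein gene of osteocytes, had between 8.85 and 16.7 RPM in reaggregates and 0.115, 0, 2.16 and 0 RPM in flat cultures 1 to 4, a log2 difference of 3.87 (adjusted p = 0.000223). For both genes all reaggregates were well above flat culture 3, the highest of the flat cultures, and both were called under each alternative. The third gene by size was *Col1a1* at 1.93 (adjusted p = 0.00643), and *Col1a2*, with the highest mean RPM of the list in reaggregates but not in flat cultures, was called at 1.83 (adjusted p = 0.00787). Both collagen calls were lost with consecutive reaggregates averaged (adjusted p = 0.0844 and 0.0944). The decoy receptor gene *Tnfrsf11b* was lower, with between 3 and 6.21 RPM in reaggregates and 12.5, 127, 9.34 and 159 RPM in flat cultures 1 to 4 (log2 difference -3.00, adjusted p = 0.0111), the high values being those of the de Bruijn lab cultures. Its adjusted p was 0.105 with consecutive reaggregates averaged, and against the flat cultures with no lab named the difference was -1.17 (adjusted p = 0.0233). Osteoblast genes outside the calls included *Spp1*, with a log2 difference of -1.26 (adjusted p = 0.0722), and *Sp7*, *Ibsp* and *Bglap2* with means of at most 4.10 RPM in either group.

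Target genes of RUNX1 in blood cells were largely silent. Of 10 with values, 3 passed the filter, and *Myb*, *Csf2* and *Elane* were at 0 in all 10 libraries. *Itga2b*, the integrin chain of platelets and early blood progenitors, was called higher (17.3 ± 5.62 against 5.59 ± 4.69 RPM, log2 difference 1.87, limma adjusted p = 0.0185), although flat culture 3 at 11.8 RPM exceeded the lowest reaggregate at 9.14 RPM. The call was lost with consecutive reaggregates averaged (adjusted p = 0.126) or as a random block (0.0551) and against the flat cultures with no lab named (0.89, adjusted p = 0.142). *Cebpa*, described above, was the gene called lower and had the highest mean RPM of the list in both groups, and *Csf1r* was not called (adjusted p = 0.341). The median of these 3 genes was -0.45. With 1 library left out, between 0 and 1 were called in each direction.

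Markers of other cell types were measured in the same libraries. Of 9 blood cell markers with values, 3 were at 0 in all libraries, namely the pan-leukocyte gene *Ptprc*, the macrophage gene *Emr1* and *Cd3e* of T cells. Not all were silent, since *Cd68* had between 1.61 and 8.23 RPM and *Itgam* between 0.198 and 0.683 RPM over the libraries. The list summed to between 11.5 and 59.8 RPM in reaggregates, with a median of 28.4 RPM, and to 74.9, 8.43, 35.3 and 3.72 RPM in flat cultures 1 to 4. *Cd34*, which stromal cells also express, made up 82.4% of the total over the 10 libraries. The de Bruijn lab cultures, however, had far less of it than flat cultures 1 and 3 (log2 difference -6.47, limma adjusted p = 0.00753), in a comparison of 2 libraries against 2. Of 3 tested markers 0 were called against all flat cultures. Against the de Bruijn lab cultures alone 1 was higher, where 4354 of all 16933 genes were called in either direction. The 6 endothelial markers summed to at most 1.23 RPM in any library, mostly *Pecam1*, and the 1 tested was not called.

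Stromal markers are collagens, surface receptors and secreted factors of mesenchymal cells, and 6 of 8 tested were called higher and 1 lower, with a median of 1.66. The list summed to between 16641 and 24725 RPM in reaggregates, with a median of 22293 RPM, and to 6282, 8972, 13256 and 6445 RPM in flat cultures 1 to 4. Beside *Col1a1* and *Col1a2*, *Pdgfra* (log2 difference 1.58, limma adjusted p = 0.000304) and *Pdgfrb* (1.74, adjusted p = 0.00103), the receptors for platelet-derived growth factors, and *Col3a1* (4.11, adjusted p = 0.00439) were among those called higher, and *Kitl*, the gene of stem cell factor, was lower (-1.01, adjusted p = 0.00386). With consecutive reaggregates averaged, 2 of 8 stromal markers were called higher, *Pdgfra* and *Pdgfrb*, and 0 lower. With 1 library left out between 5 and 6 were higher and between 0 and 1 lower. Averaging removed the calls of *Col3a1* (adjusted p = 0.0689), *Kitl* (0.0618) and *Vcam1* (0.0657), an adhesion molecule gene otherwise called at 1.12, along with those of both type I collagen genes. The call of *Kitl* was also lost with these pairs as a random block (adjusted p = 0.0515). *Thy1* reached at most 0.359 RPM. Like *Runx1*, the summed markers were higher in reaggregates and highest among flat cultures in number 3. Among reaggregates they were, again like *Runx1*, highest in numbers 3 and 4 (24687 and 24725 RPM) and lowest in 5 and 6 (17746 and 16641 RPM). Their part in the difference of *Runx1* was not tested.

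Adipocyte markers gave 0 of 5 called higher and 2 lower, with a median of -0.56, and between 0 and 2 were called lower with 1 library left out. They summed to between 225 and 650 RPM in reaggregates, with a median of 314 RPM, and to 335, 1197, 464 and 1338 RPM in flat cultures 1 to 4. *Lpl* had the highest mean RPM of the list in both groups and was not called. *Pparg*, the main regulator of fat cell differentiation, had 395 and 295 RPM in the de Bruijn lab cultures, numbers 2 and 4, and 49.4 and 58.1 RPM in numbers 1 and 3, beside 36 to 46.7 RPM in reaggregates. Its log2 difference of -1.67 and that of -2.37 for *Fabp4* lost their calls with consecutive reaggregates averaged (limma adjusted p = 0.177 and 0.186) or as a random block (0.0803 and 0.0912) and against the flat cultures with no lab named (-0.34 and -0.45). Within the flat cultures *Pparg* was called higher in the de Bruijn lab cultures by 2.66 (adjusted p = 0.0120). That comparison held 2 libraries against 2, and the 965 genes called in it were 166 without a filter. *Runx3* and *Cbfa2t2* were lower in the same flat cultures, and a relation to these markers was not tested.

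Osteoblast and chondrocyte markers gave 2 of 6 called higher, *Dmp1* and the cartilage factor *Sox9* (1.56, limma adjusted p = 0.000978), and 1 lower, *Col2a1* (-2.06, adjusted p = 0.000101), with a median of -0.11. They summed to between 403 and 507 RPM in reaggregates, with a median of 467 RPM, and to 837, 1014, 1630 and 1114 RPM in flat cultures 1 to 4. *Col2a1* made up 78.9% of the total, and *Acan* was at 0 in all libraries.

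The promoters of the members were searched for the core RUNX motif, since *Runx2* is known to be regulated by its own product. RefSeq sequences (GRCm38.p6) of 6 members were given, with 9 starts, and the 250 bases before each start matched NCBI37/mm9 exactly at 1 place. The motifs TGTGGT and TGCGGT and their complements ACCACA and ACCGCA were found in 18.6% of all 32851 promoters of that length, 14.0% with TGTGGT and 5.10% with TGCGGT. Of the 9 windows 3, each from a different member, held at least 1 motif, beside the 18.6% of all promoters. These were the promoter of *Runx2*, the first of *Runx3* and the first of *Cbfa2t3*, with 1, 2 and 1. No match was found in these bases before the starts of *Runx1*, *Cbfb* or *Cbfa2t2*, and a match is only a run of letters. The starts of *Runx1* and *Runx2*, the more abundant RUNX genes, and the first start of *Cbfa2t3*, which was called, are shown 5′ to 3′ in NCBI37/mm9, with the motif in capitals.
*Runx1*, upstream start, chr16:92826320-92826569, minus strand: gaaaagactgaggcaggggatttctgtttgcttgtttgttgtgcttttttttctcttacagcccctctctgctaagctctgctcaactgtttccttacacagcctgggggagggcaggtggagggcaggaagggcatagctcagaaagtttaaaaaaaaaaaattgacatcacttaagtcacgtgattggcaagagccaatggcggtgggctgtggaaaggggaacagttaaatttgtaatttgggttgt
*Runx1*, downstream start, chr16:92697575-92697824, minus strand: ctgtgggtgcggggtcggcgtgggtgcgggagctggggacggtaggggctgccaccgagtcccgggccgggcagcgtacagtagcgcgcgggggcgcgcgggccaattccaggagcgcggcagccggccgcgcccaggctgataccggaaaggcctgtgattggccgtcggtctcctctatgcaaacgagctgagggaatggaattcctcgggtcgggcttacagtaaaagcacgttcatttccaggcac
*Runx2*, start, chr17:44951577-44951826, minus strand: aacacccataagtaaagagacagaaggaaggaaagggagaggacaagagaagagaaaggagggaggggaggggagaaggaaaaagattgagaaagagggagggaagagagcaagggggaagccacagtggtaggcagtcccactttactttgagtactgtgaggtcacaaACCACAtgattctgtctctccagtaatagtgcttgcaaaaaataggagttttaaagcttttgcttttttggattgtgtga
*Cbfa2t3*, upstream start, chr8:125223010-125223259, minus strand: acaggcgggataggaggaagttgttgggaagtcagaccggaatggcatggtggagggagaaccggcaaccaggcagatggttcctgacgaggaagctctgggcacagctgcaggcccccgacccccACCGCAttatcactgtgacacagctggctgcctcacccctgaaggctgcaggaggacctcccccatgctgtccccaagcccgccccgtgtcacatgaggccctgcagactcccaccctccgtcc
The bases before the upstream start of *Runx1* were 45.6% G or C and those before the downstream start 67.6%, and the RPM values do not separate transcripts from these starts.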

How the data were processed

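Per the labels and the study's methods, the authors aligned reads with TopHat 1.2.0 to NCBI37/mm9, summed them over Ensembl genes in GeneProf, divided ambiguous reads among genes and deposited RPM. Between 64.2 and 66.8% of values up to 10 reads lay within 0.06 of a whole read, taking the commonest value above 0 as 1 read, so no count test of all genes was run. Among the members, only the *Cbfa2t3* ratio and its interval were taken from summed reads. The file also holds the authors' log2 fold change and adjusted p from DESeq for reaggregates against flat cultures, which were not used.

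RPM values of all 10 libraries were compared with limma 3.58.1 in R 4.3.3 (mean-variance trend, no covariates), tested on simulated data, with exact permutation beside it for single members. Lengths are merged exons of a later Ensembl release of the same assembly. Members and lists were chosen with earlier results of these data known. Named from each list were up to 3 called genes in each direction by size and the gene with the highest mean RPM over the 10 libraries, and for each called member the 5 most correlated genes. *Pdgfra*, *Pdgfrb*, *Vcam1*, *Thy1*, *Lmo2*, *Tal1*, *Csf1r*, *Spp1*, *Sp7*, *Ibsp*, *Bglap2* and the markers at 0 were named after their values were seen. So were *Fli1*, *Gata2*, *Erg*, *Cd68* and *Itgam*. List genes were matched by symbol, 1 by gene identifier, 5 entries were not in the file, and 2 more were left out after the lists had been tested. Alternatives changed the pseudocount, filter, scaling, blocks and libraries, and the 3 that left out consecutive reaggregates were added after seeing the data. Figures used matplotlib 3.10.9 in Python 3.11.15.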

Additional observations from a re-analysis of the deposited data

Results flagged for a closer look

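Each member, the share of *Runx1* and the ratio of *Cbfb* to the RUNX genes were examined for a library far from the others of its group, in 18 groups of libraries, where chance gives about 1 in 20. Of these, 2 stood out. *Runx1t1* had 2.28 RPM in flat culture 3, where the next flat culture had 0.359 RPM, a gap of 0.887 of the group's range beside a critical value of 0.829. *Cbfa2t3* had 0.117 RPM in flat culture 1 and 0.00325 RPM in the next, a gap of 0.978 of the range that amounts to 1 read.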

How the results depend on the processing

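*Runx1* kept its call under all 26 alternatives, and no difference of a member that was called changed sign. The number of members called in reaggregates against flat cultures was 2. It was 1 with a pseudocount of 1, with consecutive reaggregates as a random block and with only the IL-3 reaggregates. It was 4 without consecutive reaggregates 5 and 6, an alternative added after seeing the data. In that alternative 3067 of 16933 genes were called in either direction, in place of 2345. Leaving out 1 library gave 2 to 3 members. The number of genes called, 2345, was 750 with consecutive reaggregates averaged, 1446 with them as a random block, 819 and 637 with only the reaggregates without and with IL-3, 4354 against the de Bruijn lab flat cultures, 1398 without reaggregates 1 and 2, and between 1581 and 3643 (without flat culture 3) with 1 library left out. The genes called between flat cultures by label, 965, were 166 without a filter and between 0 and 0 with 1 library left out, where the lone library is assumed to vary like the others. With the replicate block, which pairs libraries by number and leaves out reaggregates 5 and 6, 4 members and 3038 genes were called, and the same 4 members pass without the block in those libraries. Deviations of same-numbered libraries correlated at -0.04, -0.21, 0.07 and 0.15, and number 4 alone was most like its own number, so they share only a number. Quantile normalization moved the median log2 difference of all genes from 0.04 to -0.02. The difference in the share of *Runx1* was 14.4 percentage points without division by length and between 14.5 and 17.3 with 1 library left out. For *Cbfa2t3* and, in flat cultures, *Runx1t1*, depth limits the values to a few reads.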
